A study of Mus musculus with 48 samples.

Results

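The genes described here are 10 of the protein genes encoded by the mitochondrial genome: ND1, ND2, ND3, ND4 and ND5 of respiratory complex I, CYTB of complex III, COX1, COX2 and COX3 of complex IV, and ATP6 of the ATP synthase. They were chosen by symbol alone, with no measured value in the rule, and are 10 of the 55487 genes in the table. The mitochondrial genome carries 13 protein genes in all, and the remaining 3, ND4L, ND6 and ATP8, are given beside them. The cells were Ba/F3, an interleukin 3-dependent murine line of pro-B origin, studied as 24 clones. Poly(A)+ RNA and ribosome footprints were sequenced from every clone, in 48 libraries. There were 3 clones of each of 8 genotypes: WT, heterozygous loss of Rpl5 (Rpl5+/-), Rpl11 (Rpl11+/-) or Rpl22 (Rpl22+/-), homozygous loss of Rpl22 (Rpl22-/-), the R98S change in Rpl10, and the P131S and H137Y changes in Rps15. The genotype field of the labels gives each point mutation on both alleles, although the RNA-seq titles write P131S once. The mutant clones were made by CRISPR-Cas9 editing. All cells, WT included, grew in 10% serum and 1 ng/ml interleukin 3 and received 0.1 mg/ml cycloheximide for 1 min before lysis. The lysate was then divided between RNA-seq and RNase I digestion with recovery of fragments of 28 to 30 nt. Every mutant genotype was compared with WT, and Rps15 P131S with Rps15 H137Y. The 7 comparisons with WT share the same 3 WT clones.

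Mitochondria keep a small circular genome whose protein genes encode core subunits of the respiratory chain and of the ATP synthase. All but ND6 are encoded on 1 strand and copied as long transcripts, which are cut at the transfer RNAs that lie between the genes. The messages are translated inside the organelle by mitochondrial ribosomes, which share no protein with the edited set Rpl5, Rpl10, Rpl11, Rpl22 and Rps15 of the cytosolic ribosome. Cycloheximide arrests cytosolic ribosomes and does not act on mitochondrial ones. The nuclear genome encodes the other subunits of the same complexes and every protein factor that transcribes, processes and translates mitochondrial RNA.

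Library totals ran from 13029073 to 38258559 counts in RNA and from 15598994 to 72044439 in footprints. The 10 genes held 2.53% to 4.77% of the RNA counts and 0.0626% to 0.224% of the footprints, and none of them was at 0 in any library. RNA of the 3 lost genes was lower in the clones labelled as lacking a copy than in all others: Rpl5 was at 1534 to 1588 CPM (counts scaled to 1000000 per library) in Rpl5+/- and at 2283 to 2833 elsewhere, and Rpl11 was at 1008 to 1149.8 in Rpl11+/- and at 1639.56 to 2063 elsewhere. Rpl22 RNA was at 664 to 712 CPM in Rpl22+/- and at 509 to 727 in Rpl22-/-, against 902 to 1298 elsewhere, so the RNA did not separate homozygous from heterozygous loss. Rpl22 footprints were at 1429 to 1596 CPM in Rpl22+/- and at 274 to 1544 in Rpl22-/-, which overlap too, against 2000.43 to 3360.1 elsewhere. The point mutations cannot be seen in gene totals. Rps15 RNA spread widely, at 907 to 1935 CPM in P131S and 817 to 1829 in H137Y against 1433 to 1455 in WT. Its footprints were at 243 to 693, 258 to 459 and 396 to 595 CPM in this order. The part of the Rps15 level in the changes below was not tested. Of the markers of the cell type, the interleukin 3 receptor genes were detected (Il3ra at 25.6 to 35.1 CPM, Csf2rb at 449.5 to 1719.6 CPM in RNA), while the B-lineage genes Ebf1, Rag1, Igll1, Blnk, Pax5 and Vpreb1 were at 0 in at least 1 RNA library each and reached at most 0.301 CPM. Cd79b and Cd79a, the signalling chains of the B-cell receptor, went higher, Cd79b at 3.34 to 9.91 CPM and Cd79a at 0 to 9.81. The library of H137Y clone 6 stood apart, with the highest RNA share of the 10 genes (4.77%, against 2.99% and 3.00% in the other H137Y clones). Several results below are therefore also given without it. Nuclear copies of mitochondrial sequence took counts as well: Gm28661 held 57942 to 191604 RNA counts per library, Gm28437 held 39627 to 112984 and Gm10925, which RefSeq pairs with ATP6, held 10912 to 79897. In footprints Gm28661 and Gm28437 held at most 6 and 28 counts. RNA values of COX1, COX2, COX3, ATP6, ND3 and ND4 carried fractions in 22 to 24 libraries, whereas ND1, ND2, ND5 and CYTB were whole, within 0.01, in all RNA libraries. The p-values rest on the spread between clones of the same genotype, estimated jointly over all 8 genotypes. The sources used here do not say whether the clones of a genotype came from separate edits. In bulk RNA a change in the number of mitochondria per cell and a change in RNA per mitochondrion cannot be told apart.

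In WT cells the 10 messages differed widely in level. COX1, the catalytic core of cytochrome c oxidase (MT:5328-6872 on GRCm38), was the highest per length at 8054 ± 325 CPM per kb (SD, n = 3), and by CPM it was the 2nd most abundant RNA of all genes. ND1, a membrane subunit of complex I (MT:2751-3707), followed at 3294 ± 116 CPM per kb. ATP6, the membrane subunit of the ATP synthase that faces the proton path (MT:7927-8607), stood at 2147 ± 86.9, and COX3 (MT:8607-9390) at 1991 ± 290.4. COX2, which takes electrons from cytochrome c (MT:7013-7696), stood at 1701 ± 364, and CYTB, the cytochrome b of complex III (MT:14145-15288), at 1693 ± 23.5. The clone values of ATP6 and COX3 overlapped, as did those of COX3 and COX2 and those of COX2 and CYTB, so the order of these neighbours is not resolved, whereas ATP6 lay wholly above COX2 and CYTB, and COX3 above CYTB. In WT RNA the nuclear copy Gm10925 held 30.8% to 39.1% of the ATP6 and Gm10925 counts, against 0% to 0.467% in WT footprints. The place of ATP6 in the RNA order, also relative to ND1, and its footprint to RNA ratio therefore depend on how reads were assigned. The remaining complex I messages were lower, with ND2 (MT:3914-4951) at 845 ± 20.5 CPM per kb, ND4 (MT:10167-11544) at 769 ± 8.71, ND3 (MT:9459-9806) at 488 ± 66.0 and ND5 (MT:11742-13565) at 316 ± 7.93.

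Footprints gave another order. ATP6 led with 292 ± 62.7 footprint CPM per kb, followed by COX2 at 276 ± 42.4, COX1 at 207 ± 44.3, COX3 at 171 ± 36.0 and CYTB at 165 ± 31.6. The 5 complex I genes lay well below these, with ND5 at 35.4 ± 7.94, ND3 at 25.9 ± 5.99, ND2 at 24.8 ± 7.23, ND4 at 12.002 ± 4.86 and ND1 at 11.4 ± 5.38. ND1, which was second in RNA by the counts as given, thus lay with ND4 at the bottom of the 10 in footprints, where the clone values of these 2 overlapped. The log2 ratio of footprints to RNA in WT was -2.63 for COX2, -2.88 for ATP6, -3.16 for ND5, -3.36 for CYTB, -3.54 for COX3, -4.23 for ND3, -5.09 for ND2, -5.28 for COX1, -6.00 for ND4 and -8.18 for ND1. Across 12013 genes the median was -0.31, and the 10 genes lay between the 0.125th percentile (ND1) and the 8.13th (COX2). ND6, the only protein gene on the other strand, was at -0.87, the 34.02th percentile. The RNA was poly(A)+, so each ratio also depends on how fully poly(A) selection captured the message, which was not measured.

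**Figure D1:**
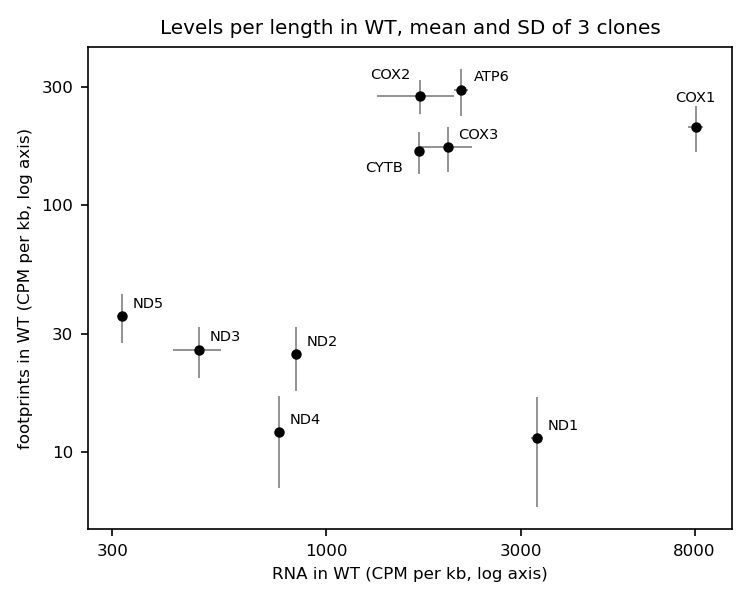
Mean RNA level (x axis, CPM per kb, log axis) and mean footprint level (y axis, CPM per kb, log axis) of each of the 10 genes in WT; bars are the SD of 3 clones. COX1 and ND1 lie farthest to the right in RNA, and ND1 and ND4 lowest in footprints.

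Most of the 10 messages, but not COX1 or COX2, passed the test as higher than WT in each Rps15 mutant. In edgeR's quasi-likelihood test with Benjamini-Hochberg adjustment over 12814 genes, 8 of the 10 rose in P131S and 8 in H137Y, and none fell. Over all genes tested 23.7% rose in P131S and 21% in H137Y. The 2 genes that did not pass in either were COX1 and COX2. The median log2 change of the 10 was 0.64 in P131S and 0.87 in H137Y, against -0.01 and 0.01 for all genes. Without H137Y clone 6 the median there was 0.63 and 7 genes passed. Markers of other blood lineages moved in the same clones: in H137Y RNA 4 of 5 myeloid genes tested and 2 of 2 erythroid genes rose, and in P131S 2 of 5 and 0 of 2. The summed RNA of the 6 myeloid markers was 32.5 to 43.9 CPM in WT, 45.8 to 102 in P131S and 45.4 to 158 in H137Y. That of the 4 erythroid markers was 35.1 to 61.6, 18.9 to 39.7 and 55.8 to 257, and that of the 5 T-cell markers was 0.298 to 0.619, 0.226 to 12.3 and 0.115 to 0.489. Their part in the change of the mitochondrial genes was not tested. For 7 of the 10 the clones of P131S all lay above WT (28.3% of all genes did), and the same number did in H137Y (25% of all genes).

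CYTB, the only mitochondrially encoded subunit of complex III, had the largest estimate of the 10 in H137Y and in P131S, where ND3 lay close to it. Its RNA was 1910.2, 1937 and 1964 CPM in WT, 3953, 3973 and 4619 in P131S, and 4760.3, 4892 and 7963 in H137Y. All mutant clones lay above all WT clones, and H137Y clone 6 was the highest. The log2 change was 1.11 ± 0.15 (SE) in P131S (adjusted p = 1.09e-05) and 1.60 ± 0.15 in H137Y (adjusted p = 2.63e-07), and without H137Y clone 6 it was 1.32. CYTB also rose in 4 of the 5 Rpl genotypes. It was at 2790.4, 3399 and 4173 CPM in Rpl11+/- (log2 change 0.83 ± 0.15, adjusted p = 0.00199) and at 2938, 2998 and 3225 in Rpl10 R98S (0.66 ± 0.15, adjusted p = 0.00749). It was at 2959.7, 3017 and 3199 in Rpl5+/- (0.66 ± 0.15, adjusted p = 0.0383) and at 2680.3, 2973 and 3060.1 in Rpl22-/- (0.58 ± 0.15, adjusted p = 0.0253). In Rpl22+/- it was at 2444, 2532 and 2617, also above every WT clone, with a change of 0.39 ± 0.15 that did not pass (adjusted p = 0.189). The call in Rpl5+/- was lost when any 1 of its 6 clones was left out, and that in Rpl22-/- when any 1 of 5 was, with log2 changes that stayed between 0.62 and 0.68 and between 0.54 and 0.64.

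ND4, a proton-pumping membrane subunit of complex I, rose in both Rps15 mutants. It was at 1048, 1061 and 1072 CPM in WT, 1716, 1795 and 2040.2 in P131S and 2039, 2078 and 3311 in H137Y. No mutant clone reached down to the WT range. The log2 change was 0.80 ± 0.13 in P131S (adjusted p = 8.15e-05) and 1.22 ± 0.14 in H137Y (adjusted p = 1.33e-06). ND4 rose in Rpl11+/- too, where the clones were at 1259.6, 1414 and 1710.00 CPM (0.46 ± 0.13, adjusted p = 0.0304), and in Rpl10 R98S, where they were at 1438, 1448 and 1544 (0.48 ± 0.13, adjusted p = 0.0236). These 2 calls were lost in 5 of 6 and in 6 of 6 fits with 1 clone left out, at changes of 0.33 to 0.56 and 0.44 to 0.50.

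ND5, another large proton-pumping subunit, was at 566, 571 and 593 CPM in WT, 771, 795 and 938 in P131S and 942, 944 and 1633 in H137Y. It was above WT in all 6 mutant clones, by 0.53 ± 0.15 in P131S (adjusted p = 0.00665) and 1.02 ± 0.15 in H137Y (adjusted p = 3.16e-05, and 0.71 without clone 6). ND2 was at 862, 868 and 902 CPM in WT, 1308, 1329 and 1649.9 in P131S and 1354, 1399 and 2210.4 in H137Y. These groups did not overlap either, and the changes were 0.70 ± 0.13 (adjusted p = 0.000253) and 0.92 ± 0.13 (adjusted p = 2.45e-05). ND1 was at 3078, 3099 and 3281 CPM in WT, 4391, 4599 and 5398 in P131S and 4237, 4410.4 and 8051 in H137Y. ND1 rose by 0.61 ± 0.15 (adjusted p = 0.00346) and 0.82 ± 0.15 (adjusted p = 0.000358), and the latter value was 0.45 without H137Y clone 6 (adjusted p = 2.3e-05). ND3 was at 144, 177 and 188 CPM in WT, 251, 345 and 469 in P131S and 269, 311 and 383 in H137Y. ND3 rose by 1.06 ± 0.17 in P131S (adjusted p = 5.22e-05) and by 0.92 ± 0.17 in H137Y (adjusted p = 0.000266), and the difference between the mutants, 0.15 ± 0.17, did not pass (adjusted p = 0.578).

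**Figure D2:**
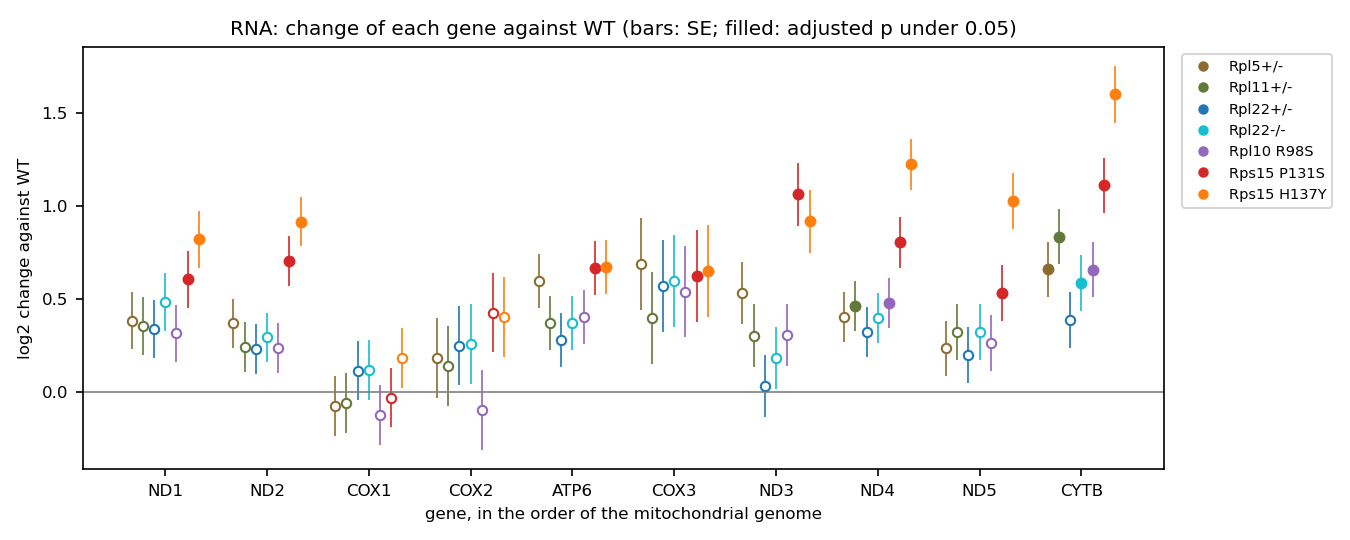
Log2 change of RNA against WT (y axis) for each of the 10 genes, in genome order (x axis), in the 7 mutant genotypes; points are edgeR estimates, bars the SE, and filled points have an adjusted p under 0.05. The P131S and H137Y points lie above those of the other genotypes for ND1, ND2, ND3, ND4, ND5, CYTB and ATP6, and COX1 stays between -0.12 and 0.18 in all genotypes.

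Of the 3 subunits of cytochrome c oxidase COX1 and COX2 did not pass in either Rps15 mutant, and COX3 passed in both. COX1 was at 11909, 12519 and 12904 CPM in WT, 11673, 11945 and 12913 in P131S and 10867, 11015 and 20507 in H137Y. The 2 lower H137Y clones lay below WT and clone 6 far above it, so the groups overlapped. The log2 change of COX1 was -0.03 ± 0.16 in P131S and 0.18 ± 0.16 in H137Y (adjusted p = 0.891 and 0.389), and the H137Y value turned to -0.19 without clone 6. In the Rpl genotypes it ran from -0.12 to 0.12. COX2 was at 899, 1198 and 1393 CPM in WT, 1391, 1409 and 1888 in P131S and 1275, 1418 and 1917 in H137Y. The ranges overlapped, and changes of 0.43 ± 0.21 and 0.40 ± 0.21 did not pass (adjusted p = 0.113 and 0.146). COX3 was at 1377, 1491 and 1816 CPM in WT, 1782, 2542 and 2882 in P131S and 1641, 2193 and 3525 in H137Y. It passed in both (0.62 ± 0.25, adjusted p = 0.0477, and 0.65 ± 0.25, adjusted p = 0.0434) although its clones overlapped those of WT, and each call was lost in 4 of 6 fits with 1 clone left out (H137Y change 0.29 without clone 6) and with limma voom. ATP6 was at 1409, 1452 and 1526 CPM in WT, 1882, 2309 and 2764 in P131S and 2139, 2349 and 2509 in H137Y. It lay above WT in all 6 clones, by 0.66 ± 0.15 (adjusted p = 0.00101) and 0.67 ± 0.15 (adjusted p = 0.00109). Gm10925 held 21.3% to 43.3% of the ATP6 and Gm10925 RNA counts in P131S and 27.6% to 53.1% in H137Y. Under the other settings, Gm10925 counts added to ATP6 among them, the changes ran from 0.50 to 0.67 and from 0.55 to 0.82. Both calls held there.

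In the 5 Rpl genotypes fewer of the 10 genes passed the test, and most estimates were above 0. The number that rose was 1 of 10 in Rpl5+/- (0.624% of all genes), 2 in Rpl11+/- (5.73%), 2 in Rpl10 R98S (6.82%), 0 in Rpl22+/- (1.08%) and 1 in Rpl22-/- (1.47%). These are the CYTB and ND4 calls above. At an unadjusted p under 0.05 the numbers were 7, 5, 4, 4 and 7 in this order, and the DESeq2 Wald test called 3, 2, 3, 0 and 3. When only the 2 genotypes compared were fitted, edgeR called 8 in Rpl5+/- and in Rpl10 R98S, 7 and 5 in Rpl22+/- and Rpl22-/-, and 3 in Rpl11+/-. The median log2 change of the 10 was 0.39, 0.34, 0.31, 0.26 and 0.35 in the order first given, against values within 0.02 of 0 for all genes. Clones lay wholly above WT for 8 of 10 genes in Rpl5+/- (16.6% of all genes), 8 in Rpl11+/- (16.5%), 8 in Rpl10 R98S (23.5%), 8 in Rpl22+/- (15%) and 5 in Rpl22-/- (16.4%). These comparisons share the WT clones and are not independent of each other. ATP6 came nearest to the threshold among the uncalled genes, at 2020.35, 2258 and 2342 CPM in Rpl5+/- (0.59 ± 0.15, adjusted p = 0.0511).

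**Figure D3:**
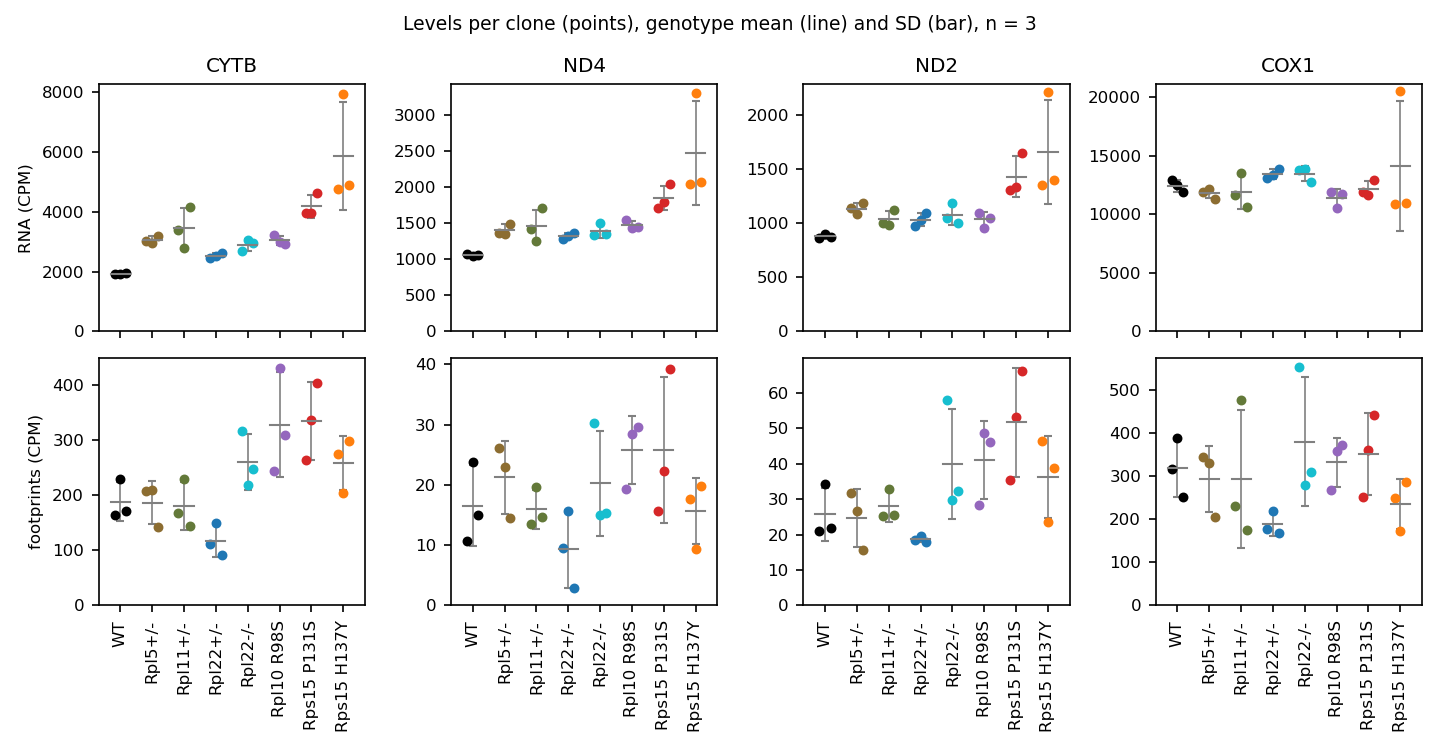
CPM of CYTB, ND4, ND2 and COX1 in each clone (points) of the 8 genotypes, RNA in the upper row and footprints in the lower, with the genotype mean (line) and SD (bar, n = 3). The mean RNA of CYTB, ND4 and ND2 is lowest in WT and highest in the Rps15 genotypes, and H137Y clone 6 is the top point of each RNA panel, COX1 included.

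As a share of all RNA counts the 10 genes together made up 2.57% ± 0.04 in WT, 2.76% in Rpl10 R98S, 2.78% in Rpl11+/-, 2.85% in Rpl5+/-, 2.93% in Rpl22+/-, 3.00% in P131S, 3.01% in Rpl22-/- and 3.59% ± 1.02 in H137Y. The clones of each mutant lay above those of WT. With the nuclear copies added, Rpl10 R98S (3.33% to 3.67%) overlapped WT (3.31% to 3.45%) and the other 6 did not.

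The make-up of the mitochondrial messages shifted away from COX1. COX1 held 51.0% ± 0.96 of the 10 genes' RNA counts in WT, where the clones were at 50.0%, 51.1% and 51.9%. It held 38.3% ± 1.78 in P131S (36.3%, 38.8% and 39.8%) and 37.2% ± 1.91 in H137Y (35.9%, 36.4% and 39.4%). The other means were 47.0% in Rpl22+/-, 45.3% in Rpl22-/-, 42.5% in Rpl11+/-, 42.1% in Rpl10 R98S and 41.4% in Rpl5+/-, and no mutant clone reached the lowest WT clone. CYTB gained share, from 7.94% ± 0.26 in WT to 13.1% ± 0.31 in P131S and 15.7% ± 0.43 in H137Y. Counted per 100 COX1 counts, CYTB was at 15.6 ± 0.79 in WT, 18.8 in Rpl22+/-, 21.6 in Rpl22-/-, 26.0 in Rpl5+/-, 26.8 in Rpl10 R98S, 29.7 in Rpl11+/-, 34.3 in P131S and 42.3 in H137Y, above WT in every mutant clone. H137Y clone 6, at 38.8, was the lowest of its genotype in this ratio, and the other clones were at 43.8 and 44.4. These ratios do not depend on how libraries were scaled.

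Since COX1 values carried fractions, the shares were also taken over the 4 genes whose RNA values were whole in all libraries, ND1, ND2, ND5 and CYTB. CYTB held 29.6% ± 0.85 of these in WT (28.7% to 30.3%), 30.8% in Rpl22+/-, 31.9% in Rpl22-/-, 34.1% in Rpl5+/-, 35.1% in Rpl10 R98S, 37.1% in Rpl11+/-, 37.2% ± 0.56 in P131S and 41.4% ± 1.14 in H137Y. Again no mutant clone overlapped WT. In Rpl11+/- the clones were far apart (33.1%, 36.9% and 41.4%), and the highest was clone 22.

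The footprints showed part of the same shift. COX1 held 27.6% ± 2.63 of the 10 genes' footprints in WT (25.1% to 30.3%) and less, with no overlap, in H137Y (21.1% ± 0.37), P131S (21.4% ± 1.56), Rpl10 R98S (22.5% ± 1.25) and Rpl22+/- (24.2% ± 0.99). In Rpl5+/-, Rpl11+/- and Rpl22-/- the clones overlapped WT. CYTB footprints per 100 COX1 footprints were 59.5 ± 7.75 in WT (52.0 to 67.5), 96.4 ± 7.39 in P131S (91.2 to 105), 98.2 ± 19.8 in Rpl10 R98S (83.1 to 121) and 111 ± 7.32 in H137Y (105 to 119), all 3 above WT without overlap. Over ND1, ND2, ND5 and CYTB alone, by contrast, the CYTB share of footprints was 65.3% ± 1.53 in WT, and it overlapped WT in every mutant but Rpl22+/-, where it was lower at 57.0% ± 4.25. In footprints these genes were not all whole: ND5 carried fractions in 15 libraries, CYTB in 14 and ND2 in 2.

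**Figure D4:**
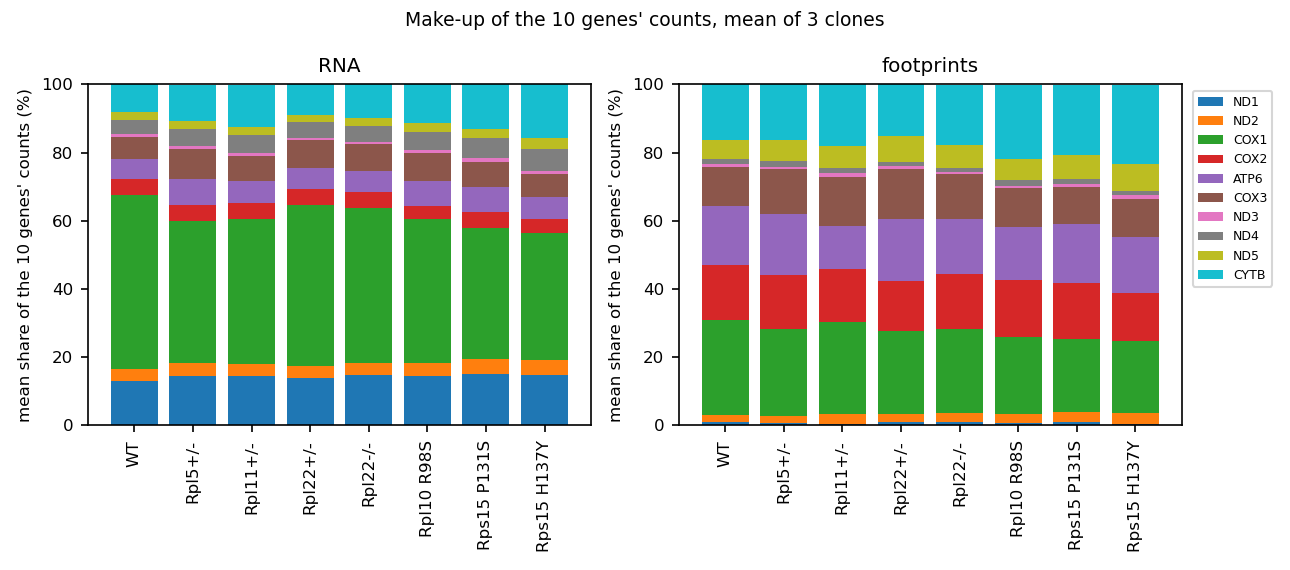
Mean share of each of the 10 genes in their summed counts (y axis, %; 3 clones per genotype), for RNA on the left and footprints on the right. In RNA the COX1 segment narrows from 51.0% in WT to 37.2% in H137Y while the CYTB segment at the top widens from 7.94% to 15.7%.

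At the footprint level fewer genes passed. In P131S 3 of the 10 rose, CYTB, ND2 and ND5, where 16.7% of 16217 genes were called in either direction. In each of the other 7 comparisons none passed, against 0.0123% of all genes in Rpl5+/-, 0.074% in Rpl11+/-, 0.253% in Rpl22+/-, 0.105% in Rpl22-/-, 1.62% in Rpl10 R98S, 11.7% in H137Y and 4.17% between the Rps15 mutants. At an unadjusted p under 0.05 those 7 had 0, 0, 2, 1, 2, 0 and 2 of the 10, and DESeq2 called 1, in Rpl10 R98S. Footprint counts of the 10 ran from 45 in a library (ND4) to 32503 (COX1). Their pooled SD between clones of a genotype was 0.33 to 0.86 on the log2 scale, against 0.17 to 0.32 in RNA. The median SD of all genes was likewise wider in footprints, at 0.39 against 0.15 in RNA.

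CYTB footprints were at 165, 171 and 230.1 CPM in WT and at 264, 337 and 404 in P131S. Every P131S clone lay above WT, with a log2 change of 0.83 ± 0.24 (adjusted p = 0.0236). ND2 was at 21.0, 21.8 and 34.4 CPM in WT and at 35.4, 53.4 and 66.4 in P131S, which gave 1.007 ± 0.314 (adjusted p = 0.0316), the lowest P131S clone lying just above the highest of WT. ND5 was at 51.3, 62.4 and 80.0 in WT and at 94.6, 109 and 138 in P131S, and the change was 0.82 ± 0.25 (adjusted p = 0.0289). ND3 also separated from WT without passing (0.68 ± 0.38, adjusted p = 0.243), so that 4 of the 10 did not overlap, against 16.6% of all genes that lay higher. The 3 calls were lost when libraries were scaled by their totals alone (changes of 0.61, 0.78 and 0.60 for CYTB, ND2 and ND5) and when P131S clone 20, WT clone 1 or WT clone 3 was left out. COX1 moved least in P131S footprints, with 252, 362 and 443 CPM against 253, 316 and 389.9 in WT (0.14 ± 0.33, and -0.08 when scaled by totals alone).

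In H137Y the median of the footprints did not follow that of the RNA upward. The median log2 change of the 10 was -0.10 in footprints (0.87 in RNA), with 4 genes above 0 and 6 below. CYTB footprints were at 205, 274 and 299.5 CPM, which overlapped WT (0.46 ± 0.24, adjusted p = 0.249). H137Y clone 6, the highest in RNA, was the lowest H137Y clone in footprints for all of the 10. ND1 had the most negative change, at 2.46, 4.11 and 9.599 CPM against 6.53, 9.51 and 16.6 in WT (-1.005 ± 0.558, adjusted p = 0.277). Without clone 6 the median was 0.16, and the genes differed. ND2, ND3, ND5 and CYTB footprints were then at 0.74, 0.75, 0.66 and 0.62, and their RNA at 0.65, 0.77, 0.71 and 1.32. ND1, COX1 and COX2 footprints were below WT, at -0.66, -0.25 and -0.16. None of these footprint changes passed.

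In Rpl22+/- all 10 genes were lower than WT in footprints under each scaling tried, with a median log2 change of -0.49 against -0.03 for all genes, and none passed. COX1 footprints were at 169, 177 and 219.6 CPM there, below 253, 316 and 389.9 in WT (-0.76 ± 0.33, adjusted p = 0.328). CYTB was at 91.4, 112 and 149.99 CPM, below every WT clone (-0.68 ± 0.24, adjusted p = 0.245), and COX2 at 93.6, 123 and 132, below 169, 175 and 222 (-0.70 ± 0.34, adjusted p = 0.377). ATP6 (-0.51) and ND2 (-0.46) were separate from WT too, which makes 5 of 10, against 10.5% of all genes that lay lower. The 10 genes together held 0.0788% ± 0.00986 of footprints in Rpl22+/- and 0.122% ± 0.0273 in WT, without overlap. In Rpl22-/-, by contrast, the median was 0.44, and 1 gene, ND5, lay wholly above WT (85.3, 86.7 and 122 CPM, 0.60 ± 0.25, adjusted p = 0.634; 9.62% of all genes lay higher). Rpl22-/- clone 649 was the highest of its genotype for all 10 genes. In Rpl10 R98S the median was 0.36 and CYTB lay above WT at 243, 309 and 432 CPM (0.80 ± 0.24, adjusted p = 0.107), the only 1 of the 10 to do so (11.1% of all genes).

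In Rpl5+/- and Rpl11+/- the footprints were centred on WT, with medians of -0.01 and -0.06. ATP6 in Rpl11+/- had the widest spread of the 10, at 16.0, 180.3 and 267 CPM. In clone 22, the lowest, its nuclear copy Gm10925 held 93.5% of the ATP6 and Gm10925 footprints, against 0% to 14.1% in the other libraries. With the Gm10925 counts added to ATP6 the log2 change went from -0.36 to 0.22.

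**Figure D5:**
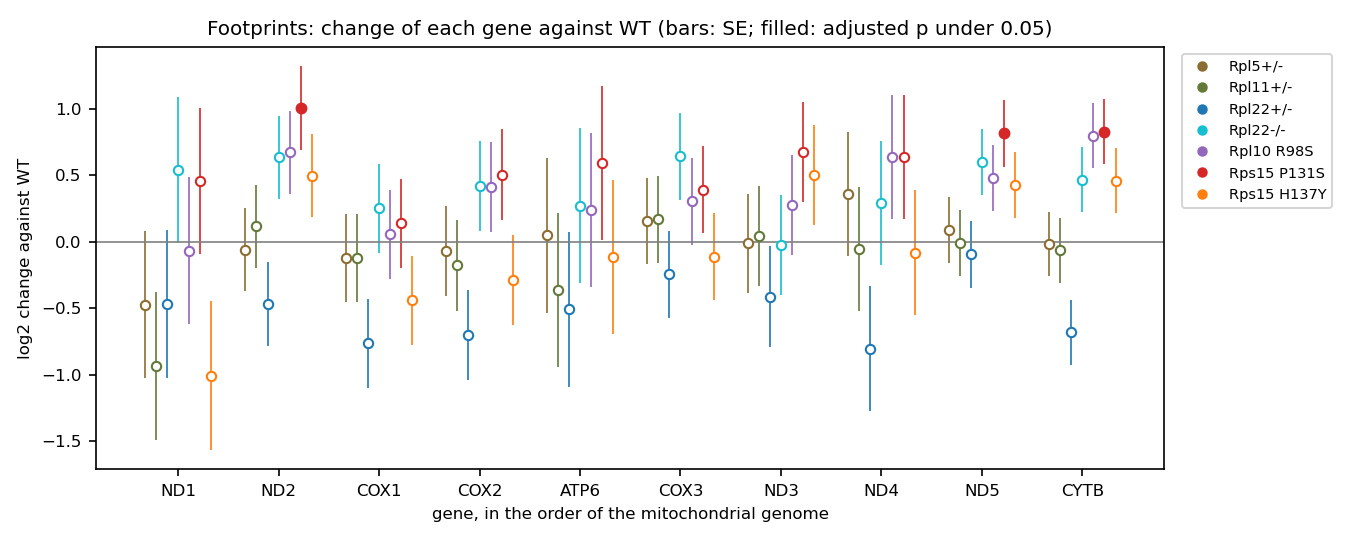
Log2 change of footprints against WT (y axis) for each of the 10 genes, in genome order (x axis), in the 7 mutant genotypes; points are edgeR estimates, bars the SE, and filled points have an adjusted p under 0.05. The 3 filled points are ND2, ND5 and CYTB in P131S, and all Rpl22+/- points lie below 0.

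The ratio of footprints to RNA was tested as the interaction of assay and genotype over 16568 genes. CYTB in H137Y was the 1 call among the 10 genes in all 8 comparisons. It gave 25.7, 57.6 and 61.2 footprint CPM per 1000 RNA CPM in H137Y and 85.0, 87.0 and 120.5 in WT. All H137Y clones lay below WT, and the log2 change of the ratio was -1.16 ± 0.30 (adjusted p = 0.0243), where 2.76% of all genes were called in either direction. Without H137Y clone 6, the lowest, the change was -0.70 (adjusted p = 0.281). The call was also lost without any 1 of the WT clones (changes of -0.94 to -1.22) and when clone was added as a block term, which pairs the RNA and footprints of 1 lysate (-1.11, adjusted p = 0.111).

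The ratio leaned downward in 4 genotypes under each scaling tried. All 10 genes had a negative change in Rpl5+/- (median -0.49), Rpl11+/- (-0.33), Rpl22+/- (-0.81) and H137Y (-0.75, and -0.27 without clone 6, when ND2 turned to 0.09), while the medians of all genes lay within 0.03 of 0. The numbers of the 10 whose clones lay wholly below WT were 2 in Rpl5+/- (2.89% of all genes), 1 in Rpl11+/- (5.37%), 6 in Rpl22+/- (6.82%) and 3 in H137Y (10.4%). CYTB was among them in each. Its ratio was 34.9, 45.8 and 59.2 per 1000 in Rpl22+/- (-1.07 ± 0.30, adjusted p = 0.235), 34.5, 49.3 and 82.3 in Rpl11+/- (-0.91 ± 0.30, adjusted p = 0.999) and 44.4, 69.1 and 70.7 in Rpl5+/- (-0.69 ± 0.30, adjusted p = 1). ND1, the gene with the fewest footprints per RNA, had the largest change of the 10, -1.83 ± 0.60 in H137Y (adjusted p = 0.0904), but its clones overlapped WT at 0.306, 0.931 and 2.27 per 1000 against 2.12, 3.07 and 5.05. In Rpl22-/-, Rpl10 R98S and P131S the medians were 0.05, 0.13 and -0.14, and no gene was separate from WT. The share of all genes called was 0% in Rpl5+/- and Rpl11+/-, 0.00604% in Rpl22+/-, 0.0121% in Rpl22-/-, 0.217% in Rpl10 R98S and 3.14% in P131S. At an unadjusted p under 0.05, 1, 2, 4, 0, 0, 0 and 3 of the 10 genes passed in Rpl5+/-, Rpl11+/-, Rpl22+/-, Rpl22-/-, Rpl10 R98S, P131S and H137Y.

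The 2 Rps15 mutants were compared with each other directly. In RNA 3 of the 10 genes were lower in P131S than in H137Y: CYTB by a log2 change of -0.49 ± 0.15 (adjusted p = 0.0207), ND5 by -0.49 ± 0.15 (adjusted p = 0.021) and ND4 by -0.42 ± 0.13 (adjusted p = 0.0265), where 12.6% of all genes were lower. CYTB and ND5 were separate between the groups (15.2% of all genes lay lower) and ND4 overlapped by a single pair of clones. Each of the 3 calls was lost without H137Y clone 6, at -0.20, -0.17 and -0.15, and without P131S clone 24 or clone 63. The median change of the 10 went from -0.21 to 0.10 without clone 6. In footprints all 10 were higher in P131S, with a median of 0.55, and none passed (without clone 6 the median was 0.36 and ND3 turned to -0.04). COX2 was the only gene without overlap, at 201, 245 and 357 CPM in P131S and 129.5, 156 and 178 in H137Y (0.79 ± 0.34, adjusted p = 0.212; 9.85% of all genes lay higher). The ratio was higher in P131S for all 10 as well (median 0.78, and 0.40 without clone 6, when COX3 and ND3 turned to -0.04 and -0.34), with 3 genes separate, CYTB, COX2 and ND5 (7.1% of all genes), and none called (0.682%), although ND3 stood at only 0.02 and turned to -0.05 when scaled by totals alone.

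The 3 protein genes outside the 10 are short or weakly expressed. ND4L, a small complex I subunit whose gene overlaps the start of ND4 by 7 bp (MT:9877-10173), was at 39.6, 41.7 and 44.6 RNA CPM in WT, 74.2, 85.0 and 95.8 in P131S and 88.9, 103 and 164 in H137Y. It rose like its neighbour, by 1.02 ± 0.20 (adjusted p = 0.000517) and 1.499 ± 0.204 (adjusted p = 1.82e-05), and also in Rpl11+/- (0.67 ± 0.20, adjusted p = 0.039) and Rpl10 R98S (0.63 ± 0.20, adjusted p = 0.0491). ATP8, whose reading frame overlaps that of ATP6 by 43 bp (MT:7766-7969), was at 48.1, 48.4 and 54.3 CPM in WT, 63.2, 64.0 and 76.8 in P131S and 63.8, 78.9 and 116 in H137Y (0.44 ± 0.16, adjusted p = 0.0357, and 0.78 ± 0.16, adjusted p = 0.00096). ND6, which lies on the other strand and overlaps ND5 by 14 bp (MT:13552-14070), did not rise in the poly(A)+ RNA. Its RNA was at 31.7, 35.6 and 37.3 CPM in WT, 32.8, 33.3 and 34.4 in P131S and 30.1, 33.6 and 60.0 in H137Y, and its log2 changes over the 7 mutants ran from -0.31 to 0.24 with none called. ND6 footprints were at 5.42, 6.68 and 9.91 CPM in H137Y, all below 12.2, 18.05 and 26.9 in WT, a change of -1.37 ± 0.48 that did not pass (adjusted p = 0.068).

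The nuclear-encoded partners of the same complexes separated the 2 Rps15 mutants. Of 39 listed subunits of complexes I, III, IV and the ATP synthase 38 were tested in RNA. In P131S 35 rose and none fell (median log2 change 0.40; 47% of all genes were called in either direction), with Atp5g3, part of the membrane ring of the ATP synthase, at 0.69 ± 0.07 (adjusted p = 3.16e-07) and Cyc1, the cytochrome c1 partner of CYTB, at 0.55 ± 0.08 (adjusted p = 1.01e-05). Ndufs7 and Atp5g2 were among those that did not pass. In H137Y 4 rose (Atp5o, Atp5h, Cox4i1 and Atp5j, by 0.20 to 0.24) and 2 fell (Ndufs7 and Atp5c1), with a median of 0.00 where 41% of all genes were called. Compared directly, 37 of 38 were higher in P131S than in H137Y (median 0.39; 25.2% of all genes were called). In footprints, where 39 entries were tested since Atp5o has 2, 19 rose in P131S and 6 in H137Y, and none fell. Uqcrq, a small complex III subunit, had the largest footprint change, 1.16 ± 0.11 in P131S (adjusted p = 4.32e-06). In RNA of the Rpl genotypes 2 of the partners passed, Cox8a and Uqcrh in Rpl11+/-, by 0.23 and 0.18, where 5.73% of all genes rose. The partner genes named here were picked after their values were seen.

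Factors that act on mitochondrial RNA were called in both directions, at shares to be read against those of all genes: in P131S RNA 23.7% of all genes rose and 47% were called in either direction, and in H137Y 21% and 41%. Of 15 genes for transcription and replication of mitochondrial DNA, 1 rose and 4 fell in P131S RNA, and 1 rose and 7 fell in H137Y. Polrmt, the mitochondrial RNA polymerase, was the 1 that rose in each, by 0.24 ± 0.08 (adjusted p = 0.025) and 0.35 ± 0.08 (adjusted p = 0.00231). In P131S Mterf2 fell by 0.98 on the log2 scale (adjusted p = 0.00196) and Mterf1b by 0.88 (adjusted p = 0.00611), both members of the mitochondrial termination factor family and both weakly expressed at 2.82 ± 0.761 against 5.56 ± 0.184 CPM in WT and 2.08 ± 0.400 against 3.83 ± 0.425. In H137Y Polg2, the accessory subunit of the mitochondrial DNA polymerase, fell by 1.10 (adjusted p = 0.000768) and Mterf1b by 0.85 (adjusted p = 0.00889). Of 25 genes for processing and stability, 11 rose and 7 fell in P131S and 7 rose and 8 fell in H137Y. Tbrg4, a FASTK-family RNA-binding protein, rose by 0.62 ± 0.10 in P131S (111 ± 20.8 against 72.2 ± 2.50 CPM, adjusted p = 4.36e-05).

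Of 21 translation factors tested, 4 rose and 5 fell in P131S, shares near those of all genes, and 0 rose and 8 fell in H137Y. Coa3, an assembly factor that promotes COX1 translation, was at 21.2 ± 2.36 CPM in H137Y and 49.8 ± 3.58 in WT, a fall of 1.23 on the log2 scale (adjusted p = 9.13e-09). Its footprints fell as well, by 0.91 (18.1 ± 1.43 against 34.03 ± 5.78 CPM, adjusted p = 0.000435), while in P131S its footprint to RNA ratio was higher by 0.64 ± 0.17 (adjusted p = 0.0261). In P131S footprints Lrpprc, which stabilises mitochondrial messages, rose by 0.72 ± 0.10 (322 ± 40.5 against 195 ± 9.85 CPM, adjusted p = 0.000115), Ssbp1, the mitochondrial single-stranded DNA-binding protein, rose by 0.83 ± 0.19 (adjusted p = 0.00489), and Mterf1a fell by 1.41 (adjusted p = 0.00116). In H137Y footprints Mrm3, a methyltransferase of mitochondrial ribosomal RNA, fell by 0.65 (adjusted p = 0.0293), and Elac2, which cuts the 3′ ends of transfer RNAs, rose by 0.45 ± 0.13 (adjusted p = 0.0301). In footprints the numbers that rose and fell in P131S were 1 and 1 for transcription and replication, 3 and 0 for processing and stability and 5 and 0 for translation, and in H137Y they were 0 and 0, 2 and 1, and 0 and 2, where 16.7% and 11.7% of all genes were called in either direction. Between the mutants, RNA was higher in P131S for 3, 6 and 8 genes of these lists and lower for 0, 1 and 0, where 25.2% of all genes were called and 12.6% were lower. In RNA of the Rpl genotypes at most 3 genes of any of these 3 lists passed in a direction. Of all 12814 genes 0.624% (Rpl5+/-) to 6.82% (Rpl10 R98S) rose there, and 53 (Rpl5+/-) to 775 (Rpl11+/-) genes fell.

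Across the 24 RNA libraries the 10 genes did not all move together. The Pearson correlation of each gene's log2 CPM with the mean of the other 9 was 0.90 to 0.98 for ND1, ND2, ND4, ND5 and CYTB, 0.80 for ND3 and 0.77 for ATP6, and lower for the 3 oxidase genes COX3 (0.58), COX2 (0.51) and COX1 (0.40). In footprints all 10 lay between 0.66 and 0.95. These are descriptions over libraries that share depth and genotype. The nuclear genes whose RNA pattern over the 24 libraries was most like the mean of the 10, among 8475 genes with at least 10 CPM, were Pabpc1 (r = 0.914), Atmin (0.899), Ccny (0.896), Eef1a1 (0.884) and Zdhhc3 (0.882). In footprints, among 7758 genes, they were Gm3555 (0.883), Ncl (0.879), Dlst (0.877), Hmgn5 (0.869) and Uqcrb (0.867).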

How the data were processed

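RNA-seq and footprint libraries were prepared from divided lysates of the same clones, per the labels. The authors deposited 1 table of estimated counts per gene for all 48 libraries; 81.4% to 93.6% of a library's values were exactly whole numbers. The submitters' processing notes name STAR 2.6.1d, Salmon 1.4.0, DESeq2 1.30 and GRCm38; their order, the annotation, the feature counted and the handling of reads that match several genes are not given in the sources used here. Estimated counts were rounded to whole numbers, filtered with filterByExpr and scaled by TMM. Each assay was fitted over its 24 libraries with edgeR 4.0.16 (R 4.3.3; robust quasi-likelihood F-test, Benjamini-Hochberg over all genes, threshold 0.05), and the footprint to RNA ratio as an interaction over 48. SE is the absolute log2 change over the square root of F. Of all genes tested, 12814 were in RNA, 16217 in footprints and 16568 in the ratio. With 3 clones against 3 an exact permutation test cannot go below p = 0.1, so none is given. Alternatives were DESeq2 1.42.0, limma 3.58.1 voom, other scalings, no filter, the 2 genotypes alone, each clone left out, a clone block, and, chosen after seeing the data, Gm10925 counts added to ATP6. RNA and footprints of a clone are paired by the labels. Their deviations from the genotype mean correlated at 0.0897 to 0.460 over 12074 genes, and those of different clones of a genotype at -0.347 to -0.032. Deviations of 3 clones from their own mean sum to 0, so positive values within clones push those between clones below 0. All 10 genes are named, with ND4L, ND6 and ATP8. Of the transcription, RNA processing and translation factors, the 3 called genes with the largest change and separate groups are named per Rps15 comparison and readout; other genes named were chosen after their values were seen. The 10 genes and all lists were chosen with earlier results of these data known.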

Additional observations from a re-analysis of the deposited data

Results flagged for a closer look

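RNA of 3 genes differed between the 2 Rps15 mutants by a direct test. The log2 change of P131S against H137Y was -0.49 for CYTB, -0.49 for ND5 and -0.42 for ND4. Without H137Y clone 6 the values were -0.20, -0.17 and -0.15, and none of the 3 passed.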

How the results depend on the processing

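Of the numbers of genes called among the 10, 181 of 200 stayed within 1.5 times under the other settings. With 1 clone left out 111 of 144 did. A number of 0 in both fits was counted as unchanged. The main fit had 0 in RNA of Rpl22+/-, in every footprint comparison but P131S against WT, and in every ratio comparison but H137Y against WT. The 181 and 111 therefore overstate how stable the comparisons with calls were. All 96 RNA and footprint shares moved by less than 1 SD. Leaving out 1 of 3 clones cannot move a mean by 1 SD, so this says nothing about their stability. In P131S and H137Y RNA the 8 calls became 7 or 8. Fitting only the 2 genotypes compared called 8 in RNA of Rpl5+/- (1 in the fit over all genotypes), 7 in Rpl22+/- (0), 5 in Rpl22-/- (1), 8 in Rpl10 R98S (2) and 0 between the Rps15 mutants (3), and 0 in the ratio of H137Y (1). With no filter the numbers were 0 in Rpl5+/-, 1 in Rpl11+/-, 0 in Rpl22-/-, 1 in Rpl10 R98S and 0 between the Rps15 mutants in RNA, 0 in P131S footprints and 0 in the H137Y ratio. DESeq2 called 3 in RNA of Rpl5+/- and of Rpl22-/- and 1 in footprints of Rpl10 R98S, and scaling by library totals alone called 2 in RNA of Rpl5+/- and 0 in P131S footprints. The replicate block, which pairs the assays of a clone, left 0 in the H137Y ratio and changed no other call among the 10. With 1 clone left out the numbers ran from 0 to 0 in RNA of Rpl5+/-, 1 to 3 in Rpl11+/-, 0 to 1 in Rpl22-/-, 1 to 1 in Rpl10 R98S and 0 to 3 between the Rps15 mutants, 0 to 3 in P131S footprints, 0 to 2 in the H137Y ratio and 0 to 1 in the ratio between the Rps15 mutants. The cause of these moves was not tested.

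Signs turned in 136 values of single genes, none of them called in either fit. With library totals alone these were ND3 in Rpl22+/- RNA (-0.013), COX2 in RNA between the Rps15 mutants (-0.010), ND3 in Rpl11+/- footprints (-0.016), COX1 in Rpl10 R98S (-0.0078) and P131S (-0.082) footprints and ND3 in the ratio between the Rps15 mutants (-0.047). With median-ratio factors it was ND5 in Rpl11+/- footprints (0.0053). With limma voom they were COX3 in RNA between the Rps15 mutants (0.014), ND4 in H137Y footprints (0.021) and COX3 in the Rpl22-/- ratio (-0.0089). With Gm10925 added they were ATP6 in Rpl11+/- footprints (0.22) and in the ratio of Rpl22-/- (0.035), Rpl10 R98S (0.074) and P131S (0.028). The others came from leaving out 1 clone, with these ranges of the log2 change. Rpl11+/- gave COX1 -0.16 to 0.017, COX2 -0.037 to 0.34 in RNA. Rpl22+/- gave ND3 -0.074 to 0.11 in RNA. Rpl10 R98S gave COX2 -0.25 to 0.051 in RNA. H137Y gave COX1 -0.19 to 0.34 in RNA. P131S against H137Y gave ND1 -0.38 to 0.15, ND2 -0.34 to 0.056, ND3 -0.11 to 0.34, COX1 -0.37 to 0.16, COX2 -0.14 to 0.22, COX3 -0.25 to 0.33, ATP6 -0.16 to 0.12 in RNA. Rpl5+/- gave ND2 -0.28 to 0.21, ND3 -0.18 to 0.20, ND5 -0.12 to 0.33, CYTB -0.11 to 0.16, COX1 -0.27 to 0.081, COX2 -0.18 to 0.11, COX3 -0.029 to 0.35, ATP6 -0.083 to 0.25 in footprints. Rpl11+/- gave ND2 -0.022 to 0.38, ND3 -0.22 to 0.25, ND4 -0.30 to 0.31, ND5 -0.19 to 0.18, CYTB -0.28 to 0.10, COX1 -0.66 to 0.14, COX2 -0.62 to 0.055, COX3 -0.18 to 0.36, ATP6 -1.02 to 0.16 in footprints. Rpl22+/- gave ND5 -0.24 to 0.095 in footprints. Rpl22-/- gave ND3 -0.64 to 0.24, ND4 -0.14 to 0.65, COX1 -0.13 to 0.43, COX2 -0.079 to 0.63 in footprints. Rpl10 R98S gave ND1 -0.33 to 0.38, ND3 -0.043 to 0.53, COX1 -0.090 to 0.23 in footprints. P131S gave COX1 -0.065 to 0.36 in footprints. H137Y gave ND4 -0.31 to 0.30, COX3 -0.33 to 0.13, ATP6 -0.30 to 0.080 in footprints. P131S against H137Y gave ND3 -0.044 to 0.47 in footprints. Rpl5+/- gave ND4 -0.29 to 0.33, ND5 -0.35 to 0.11, COX1 -0.17 to 0.13 in the ratio. Rpl11+/- gave ND2 -0.31 to 0.13, COX1 -0.51 to 0.12 in the ratio. Rpl22-/- gave ND1 -0.44 to 0.48, ND2 -0.052 to 0.60, ND3 -0.91 to 0.17, ND4 -0.56 to 0.27, CYTB -0.34 to 0.071, COX1 -0.23 to 0.34, COX2 -0.26 to 0.35, COX3 -0.35 to 0.42, ATP6 -0.34 to 0.22 in the ratio. Rpl10 R98S gave ND1 -0.66 to 0.043, ND3 -0.33 to 0.22, ND4 -0.079 to 0.54, CYTB -0.12 to 0.37, ATP6 -0.32 to 0.058 in the ratio. P131S gave ND1 -0.50 to 0.30, ND4 -0.53 to 0.24, COX2 -0.12 to 0.23, COX3 -0.47 to 0.0079, ATP6 -0.44 to 0.17 in the ratio. H137Y gave ND2 -0.74 to 0.089 in the ratio. P131S against H137Y gave ND3 -0.34 to 0.42, COX3 -0.039 to 1.00 in the ratio.

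Over the whole table, the 2-genotype fit called 1868 genes in RNA of Rpl5+/- against 133, 855 in Rpl11+/- against 1509, 1248 in Rpl22+/- against 500, 1436 in Rpl22-/- against 675, 4216 in Rpl10 R98S against 1647 and 378 between the Rps15 mutants against 3234. In footprints DESeq2 called 732 in Rpl10 R98S against 263 and 1317 between the Rps15 mutants against 677. Library totals alone shifted the median of all genes to -0.18 in P131S RNA, -0.11 in H137Y RNA and -0.24 in P131S footprints. Under this scaling the RNA calls were 1665 higher and 4570 lower in P131S (3031 and 2993 with TMM). In H137Y they were 1822 higher and 3840 lower (2697 and 2557 with TMM). Footprints of ND1, ND3 and ND4 rest on few counts, which limits what their changes can show.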

Other observations

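Mitochondrial genes that encode no protein were measured unevenly. Of the 22 mitochondrial transfer RNA genes, 20 were at 0 in all RNA libraries. In footprints mt-Tv, the valine transfer RNA, held 12264 to 72200 counts per library, with a median of 27188, mt-Tm held 1734 to 8978 and mt-Th 846 to 4410. The ribosomal RNAs were low in the poly(A)-selected libraries, with 11 to 53 counts for mt-Rnr2 and 2 to 21 for mt-Rnr1.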
